A study of Solanum lycopersicum with 9 samples.

Results

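Gene expression at the end of tomato fruit ripening was set against its start by comparing the 3 arrays labelled red ripe (RR) with the 2 arrays labelled breaker (BR), that is 5 of the 9 arrays of the series. The description covers the 23194 of 67795 probe sets to which the annotation pairs 1 gene symbol. They stand for 21326 genes, with each gene represented by the probe set with the highest mean signal. All samples came from fruit of wild type Solanum lycopersicum cv. Ailsa Craig grown hydroponically in a greenhouse, and the other 4 arrays hold the turning (TU) and pink (PK) stages with 2 arrays each. The stages were set apart by skin colour. The sample labels name pericarp and the PureLink kit, whereas the methods name fruit tissue, in a single sentence abscission zones, and the RNeasy kit. RNA was hybridised to Affymetrix TomGene ST 1.1 strips, and every value below is a log2 signal that the authors computed with RMA, a method that corrects the background, puts the arrays on a common scale and summarises the probes of a set. The methods speak of 2 independent biological replicates per stage although 3 red ripe arrays were analysed here. The p-values therefore rest on the spread of these samples alone, which may be technical in part.

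Breaker is the stage at which the first colour shows on the green fruit, and red ripe fruit is fully coloured and soft. Tomato is a climacteric fruit, in which a burst of ethylene and a set of transcription factors, among them MADS-box and NAC proteins, start ripening. During ripening chlorophyll is broken down, chloroplasts turn into chromoplasts that store lycopene, enzymes loosen pectin and hemicellulose in the cell wall, and sugars, organic acids and volatiles change.

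The fit gave 1 mean per stage over all 9 arrays in limma, and a gene was called at a Benjamini-Hochberg adjusted p under 0.05 over all probe sets with a fold change over 2. Of the genes with 1 symbol 771 were called higher at red ripe (3.62%) and 626 lower (2.94%). On the whole array 1008 probe sets were higher (1.49%) and 843 lower (1.24%), so that 54.46% of the calls were rises, against 44.42% after quantile normalization (680 higher and 851 lower) and 42.26% after cyclic loess normalization (762 higher and 1041 lower). With no fold threshold 2.35% of all probe sets were higher and 1.69% lower, and of the probe sets with no symbol 0.421% were called higher and 0.416% lower. The upper end of the signal range moved with the stage, since 1 in 10 probe sets lay above 5.24 to 5.43 on the red ripe arrays and above 5.09 to 5.15 on the breaker arrays, while the medians were 1.78 to 1.83 at red ripe and 1.82 to 1.84 at breaker. Its part in the balance of rises and falls was not tested beyond these scalings. Across probe sets red ripe arrays correlated with one another at r = 0.983 to 0.991, the breaker arrays at r = 0.988, and red ripe with breaker arrays at r = 0.955 to 0.965. Without breaker replicate 2 the counts on the whole array were 536 higher and 524 lower.

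**Figure D1:**
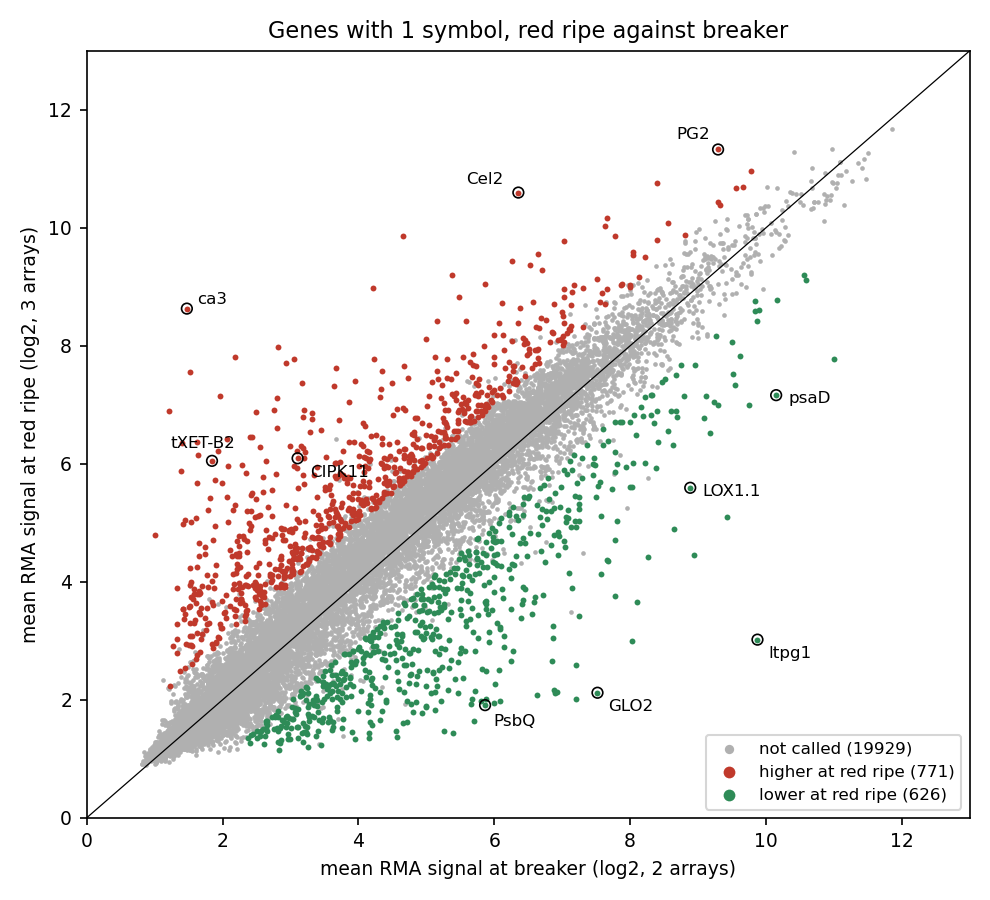
Mean log2 RMA signal at red ripe (3 arrays, vertical) against breaker (2 arrays, horizontal), 1 point per gene with 1 symbol. The 771 genes called higher lie above the diagonal and the 626 called lower below it, with ca3 farthest above and ltpg1 farthest below; 10 genes of the text are named.

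Most changes were moderate. Among the genes called higher 220 rose over 4-fold, 72 over 8-fold and 7 over 32-fold, and among those called lower 198 fell over 4-fold, 61 over 8-fold and 4 over 32-fold. Signals near the array median cannot be told from background because the files hold no detection calls. Whether a bulk signal fell because fewer cells of a type were present or because each held less RNA cannot be told apart. In 96 of the genes that rose the breaker mean, and in 130 of those that fell the red ripe mean, was under 2, so their folds are at best lower bounds. A smaller group moved across much of the scale, with 18 genes that had a red ripe mean over 5 and a breaker mean under 2, and 10 that had a red ripe mean under 2 and a breaker mean over 5.

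The gene with the largest rise was ca3, which codes for a carbonic anhydrase, the enzyme that interconverts carbon dioxide and bicarbonate. Its signal was 8.70, 8.70 and 8.49 on the red ripe arrays, against 1.49 and 1.46 on the breaker arrays. All red ripe arrays thus stood far above breaker arrays that lay below the array median, and the log2 fold change was 7.16 (standard error 0.16, adjusted p = 7.99e-07), or 143-fold as at best a lower bound. The turning and pink means of ca3 were 2.02 and 1.56, so the high signal was seen at red ripe alone among the 4 stages. Its relatives did not pass the test. ca1 had signals of 6.72, 6.72 and 6.50 at red ripe, against 6.85 and 7.03 at breaker (adjusted p = 0.459), and ca2 had 1.36 to 1.57 at red ripe, against 1.5 and 1.48 at breaker (adjusted p = 1.0).

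Next came numbered genes (LOC), of which some are described in the annotation tables of the study. LOC101251407, described there as a proline-rich protein, had 7.71, 7.79 and 7.17 at red ripe, against 1.44 and 1.59 at breaker, a log2 fold change of 6.04 (standard error 0.21, adjusted p = 6.26e-06). It differed from ca3 in its course, because it was already at 6.99 at pink after 2.17 at turning. LOC101248320, a histidine decarboxylase, which makes histamine from histidine, had 7.12, 6.91 and 6.63 at red ripe, against 1.28 and 1.15 at breaker. LOC101261650, a glucan endo-glucosidase, had 7.99, 7.38 and 8.04 at red ripe, against 2.08 and 2.29 at breaker, while its other probe set was not called. Both were near 2 at turning and pink and rose by 5.67 (adjusted p = 3.55e-06) and 5.62 (adjusted p = 1.27e-05). The beta-glucosidase LOC101265470 had 9.03, 9.20 and 8.72 at red ripe, against 3.90 and 4.52 at breaker. It has 4 other probe sets, of which 3 were called the same way and 1 was not called.

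The other 10 of the 15 largest rises are of genes given here by number only, with log2 fold changes of 4.39 to 5.20. In LOC101268378 the breaker arrays lay far apart, with 9.87, 9.91 and 9.80 at red ripe, against 3.01 and 6.31 at breaker, and the rise of 5.20 was 3.55 without breaker replicate 1 and 6.85 without breaker replicate 2. LOC101260720 had 7.59, 8.18 and 7.55 at red ripe, against 4.33 and 1.78 at breaker, and rose by 4.72 (5.99 without breaker replicate 1 and 3.44 without breaker replicate 2). The arrays of the stages did not overlap in either gene, which was a condition of the choice. LOC101254137 had a pink mean of 5.93 and a turning mean of 2.56, with 8.18, 7.95 and 7.83 at red ripe, against 2.98 and 2.65 at breaker.

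**Figure D2:**
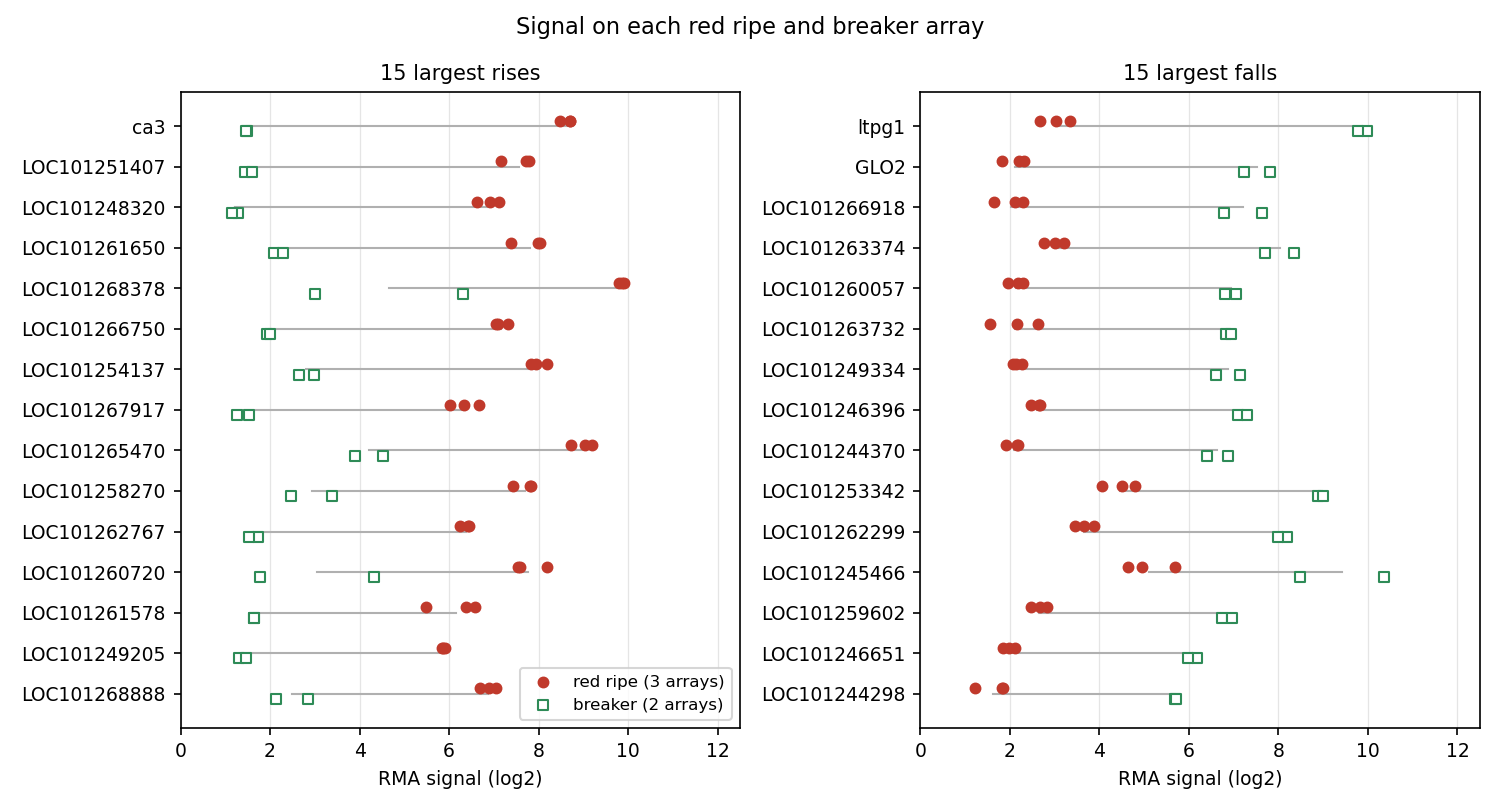
Log2 RMA signal of the genes with the 15 largest rises and 15 largest falls, 1 row per gene; filled circles are the 3 red ripe arrays, open squares the 2 breaker arrays, and grey lines join the stage means. The arrays of the stages do not overlap in any gene, a condition of the choice, and the breaker arrays of LOC101268378 (3.01 and 6.31) and LOC101260720 (4.33 and 1.78) are the most scattered.

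The largest fall was that of ltpg1, whose product is a lipid transfer protein of the plant surface. Its signal was 3.35, 3.03 and 2.68 at red ripe, against 9.97 and 9.78 at breaker, a log2 fold change of -6.86 (standard error 0.20, adjusted p = 3.55e-06), 116-fold lower. With turning and pink means of 9.71 and 8.12, it was still high at pink. GLO2, a glycolate oxidase of photorespiration, had 2.32, 1.83 and 2.21 at red ripe, against 7.23 and 7.81 at breaker, and fell by 5.4 (standard error 0.28, adjusted p = 2.29e-05). Its means fell through the stages, with 6.91 at turning and 4.49 at pink.

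Further large falls were seen in numbered genes. LOC101263732, a subunit of the photosystem I reaction centre, had 1.55, 2.17 and 2.62 at red ripe, against 6.83 and 6.95 at breaker (-4.78, adjusted p = 3.41e-05). LOC101253342, the gamma chain of the chloroplast ATP synthase, had 4.51, 4.79 and 4.06 at red ripe, against 8.89 and 8.99 at breaker (-4.49, adjusted p = 2.29e-05). Both stood well above their red ripe level at pink, with means of 4.99 and 7.83. LOC101266918, a chloroplast phosphoglycerate dehydrogenase, fell by 5.19, and the purine permease LOC101263374 by 5.04. The beta-glucosidase LOC101260057 fell by 4.79, the solute carrier LOC101249334 by 4.72 and the alpha-dioxygenase LOC101246396 by 4.60. LOC101245466, with no description, showed scattered breaker arrays (4.96, 4.64 and 5.70 at red ripe, against 10.37 and 8.49 at breaker) and fell by 4.33 (-3.39 without breaker replicate 1 and -5.27 without breaker replicate 2).

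For the view across functions, 465 genes were sorted by symbol into 24 lists, and members were counted at an adjusted p under 0.05 with no fold threshold. At this threshold 9.92% of the 897 genes with a name other than LOC were higher and 8.81% lower (18.7% in all), against 5.92% and 3.93% of all genes with 1 symbol (9.85% in all). The listed genes are named genes, so 18.7% is the share to read the counts against. The lists were chosen with earlier results of these data known, so their shares describe these members and do not test the functions. In the lists of flavonoid, cuticle and surface lipid (80%), of nuclear photosynthesis and chlorophyll (46.2%), of the cell wall (37.3%) and of redox and ascorbate (35%) 35% or more of the members passed. Least often members of cell division (5%), cytokinin and brassinosteroid (5.26%) and membrane transport (8%) did so. The median log2 fold change was 0.05 over all genes with 1 symbol and 0.01 over all probe sets.

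**Figure D3:**
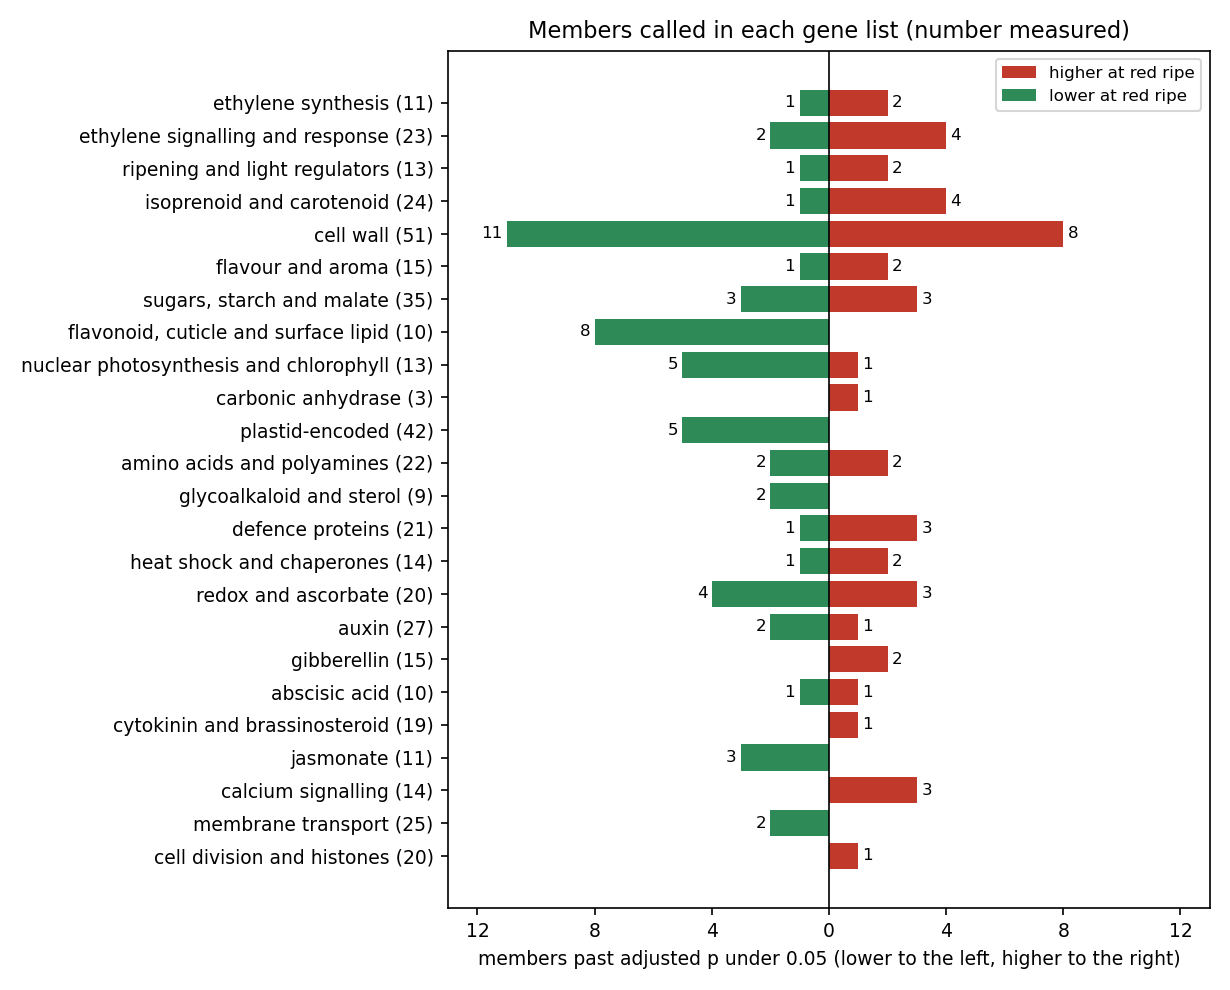
Number of members past an adjusted p under 0.05 in each of 24 gene lists, higher at red ripe to the right and lower to the left, with the number of measured members in parentheses. All 8 called members of the flavonoid, cuticle and surface lipid list lie on the lower side, while the cell wall list is split between 8 higher and 11 lower.

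Cell wall genes changed in both directions. Of 51 members 8 rose, 11 fell and 32 did not pass, with a median of -0.07. The cellulase gene Cel2 had 10.79, 10.30 and 10.70 at red ripe, against 6.50 and 6.21 at breaker, and rose by 4.24 (standard error 0.17, adjusted p = 1.04e-05). Its relative Cel8 went the opposite way, with 4.22, 3.42 and 3.66 at red ripe, against 7.44 and 8.11 at breaker (-4.01, standard error 0.36, adjusted p = 0.000393). PG2, the catalytic polygalacturonase that cuts pectin in ripening fruit, had 11.25, 11.29 and 11.44 at red ripe, against 9.09 and 9.50 at breaker, and rose by 2.03 (adjusted p = 0.000159). GP1, the non-catalytic beta subunit that binds the same enzyme in the wall, had 2.15, 1.68 and 2.1 at red ripe, against 5.59 and 6.01 at breaker (-3.82, adjusted p = 2.37e-05). Catalytic and non-catalytic parts of polygalacturonase thus stood on opposite sides of breaker.

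Among enzymes of hemicellulose, tXET-B2, a xyloglucan endotransglycosylase, which cuts and rejoins xyloglucan chains, had 5.91, 6.52 and 5.72 at red ripe, against 2.31 and 1.38 at breaker, and rose by 4.21 (adjusted p = 0.000117). XYL1, a xylosidase, had 7.55, 7.59 and 7.58 at red ripe, against 4.43 and 4.27 at breaker (3.22, adjusted p = 0.000322). XTH1, of the same family as tXET-B2, had 1.63, 1.66 and 1.40 at red ripe, against 3.41 and 3.03 at breaker, and fell by 1.66 (adjusted p = 0.000687). The red ripe arrays of XTH1 were below the array median, so this fall is at best a lower bound. Of the beta-galactosidases, TBG6 fell by 3.31 (4.68, 4.28 and 4.11 at red ripe, against 7.06 and 8.28 at breaker) and TBG7 rose by 1.76, a call lost without breaker replicates 1 and 2 and red ripe replicate 1 (adjusted p up to 0.116). The expansins were split as well. The expansin-like EXLA1 rose by 2.27 (adjusted p = 0.000623) and EXPA5 fell by 1.85 (adjusted p = 0.00197), while EXP1, the expansin known from ripening tomato, had 4.97, 5.05 and 4.89 at red ripe, against 4.30 and 5.13 at breaker (adjusted p = 0.973). The pectin methylesterases PMEU1 and PME2.1 fell by 1.92 (adjusted p = 0.00257) and 1.48 (adjusted p = 0.00348). With each of the 9 arrays left out in turn, 13 of the 19 calls were kept every time, and the number higher was 5 without breaker replicate 2.

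Of 24 genes of isoprenoid and carotenoid formation 4 rose and 1 fell, with a median of 0.17. The rise of CrtR-b2, a beta-carotene hydroxylase of chromoplasts, was kept without each array in turn. It had 5.33, 5.17 and 5.21 at red ripe, against 3.41 and 3.75 at breaker, a log2 fold change of 1.66 (standard error 0.16, adjusted p = 0.000527). dxs, the entry enzyme of the plastid isoprenoid route, had 9.54, 9.49 and 9.39 at red ripe, against 8.50 and 8.67 at breaker, and rose by 0.89 (adjusted p = 0.00739; 0.0941 and 0.0529 without breaker replicate 1 or 2). zds and pds, the desaturases on the way to lycopene, rose by 0.94 and 0.62. The call of zds was lost without breaker replicate 1 and red ripe replicates 1 and 2 (adjusted p up to 0.174), and that of pds without any single breaker or red ripe array (adjusted p up to 0.283). Psy1, the phytoene synthase of fruit and the entry into carotenoids, had 10.06, 10.15 and 10.26 at red ripe, against 9.42 and 9.43 at breaker. The stages of Psy1 did not overlap, as in 31.5% of all genes and 30.1% of named genes with the red ripe arrays all above breaker. Its log2 fold change of 0.73 had an adjusted p = 0.0683 (limma). Psy1 passed the threshold in 6 of 17 alternative settings and not in the others, with log2 fold changes of 0.68 to 0.78. CYP97C11, a carotene hydroxylase of lutein formation, fell by 1.01, which was lost without breaker replicates 1 and 2 and red ripe replicate 1 (adjusted p up to 0.19).

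Of 13 regulators of ripening and of light responses 2 rose and 1 fell. The MADS-box factor TDR4 (FUL1) had 9.56, 9.54 and 9.68 at red ripe, against 7.77 and 8.31 at breaker (1.55, adjusted p = 0.0019). COP1, a ubiquitin ligase that holds back light signalling, had 6.91, 6.96 and 6.86 at red ripe, against 5.43 and 5.11 at breaker (1.64, standard error 0.15, adjusted p = 0.000494). Both calls were kept with each array left out in turn. Cry1b, a blue light receptor, had 3.07, 2.87 and 3.17 at red ripe, against 5.15 and 4.74 at breaker, and fell by 1.91 (adjusted p = 0.00885; 0.0921 without breaker replicate 1). NAC-NOR, the NAC factor NOR required for ripening, had 10.56, 10.43 and 10.41 at red ripe, against 10.76 and 11 at breaker, a log2 fold change of -0.41 that did not pass (adjusted p = 0.18).

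Ethylene is made from S-adenosylmethionine by ACC synthase (ACS) and ACC oxidase (ACO). Of 11 genes of its synthesis 2 rose and 1 fell. aco5 had 7.52, 7.49 and 7.32 at red ripe, against 5.83 and 4.50 at breaker, and rose by 2.28 (standard error 0.35, adjusted p = 0.00764). At turning and pink its means were 2.55 and 2.04, below both breaker arrays. ACS1A had 1.44, 1.34 and 1.26 at red ripe, against 4.14 and 4.18 at breaker (-2.81, adjusted p = 2.29e-05, at best a lower bound). ACS6 rose by 0.72 (adjusted p = 0.0187), which was lost without breaker replicates 1 and 2 and red ripe replicates 1 and 2 (adjusted p up to 0.211). ACS2 had 6.23, 5.80 and 6.05 at red ripe, against 5.70 and 5.03 at breaker (adjusted p = 0.255), and ACO1 had at most 1.82 on any of these arrays.

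Among 23 genes of ethylene signalling and response 4 rose and 2 fell, and the risen ones were all ethylene response factors (ERF), which bind promoters at the end of the pathway. Not all ERF genes rose, since ERF7 did not pass (log2 fold change -0.24, adjusted p = 0.773) and JERF1, whose symbol also holds ERF, was one of the 2 that fell. ERF5 had 6.35, 5.82 and 5.92 at red ripe, against 4.02 and 3.44 at breaker (2.30, standard error 0.33, adjusted p = 0.00557; 0.0713 without breaker replicate 2). ERF2 had 8.97, 9.09 and 9.10 at red ripe, against 8.15 and 7.62 at breaker (1.17, adjusted p = 0.0064; 0.0663 without breaker replicate 2). ERF1 rose by 1.73 on 1 of its 2 probe sets and ERF4 by 1.46. Their calls were less stable, since that of ERF1 was lost without breaker replicates 1 and 2 and red ripe replicates 1 and 3 (adjusted p up to 0.162) and that of ERF4 without breaker replicate 1, any red ripe array or any pink array (adjusted p up to 0.195). ERF4 had 7.69, 7.60 and 7.58 at red ripe, against 5.56 and 6.76 at breaker. JERF1 fell by 0.74 and E8-6 by 0.97, the first lost without any single breaker or red ripe array (adjusted p up to 0.17) and the second without breaker replicates 1 and 2 and red ripe replicates 1 and 2 (adjusted p up to 0.266). Without breaker replicate 2 the list held 1 rise and 0 falls. No call was made for the receptors ETR1, ETR2, ETR4, ETR5 and ETR6, of which ETR6 came closest with a log2 fold change of -0.92 (adjusted p = 0.0577).

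Nuclear genes of photosynthesis and chlorophyll fell more often than they rose. Of 13 members 5 fell and 1 rose, with a median of -0.51 that was also below 0 after each rescaling (-0.49 to -0.76). psaD, a subunit of photosystem I, had 7.17, 7.05 and 7.27 at red ripe, against 10.12 and 10.18 at breaker (-2.99, standard error 0.17, adjusted p = 3.66e-05). PsbQ, of the oxygen-evolving complex of photosystem II, had 1.89, 2.13 and 1.71 at red ripe, against 5.92 and 5.81 at breaker (-3.96, standard error 0.31, adjusted p = 0.000202). The pink means of psaD (9.18) and PsbQ (5.05) were closer to breaker than to red ripe. CAB4, a chlorophyll-binding protein, had 1.98, 2.06 and 1.83 at red ripe, against 4.86 and 3.96 at breaker, and its turning and pink means of 2.1 and 2.02 were already at the red ripe level. PSBP fell by 1.00 (adjusted p = 0.00412; 0.0574 without breaker replicate 1). The member that rose was SGR1, the stay-green protein that starts chlorophyll breakdown, with 7.97, 7.91 and 7.92 at red ripe, against 6.63 and 7.24 at breaker. Its rise of 1.00 (adjusted p = 0.0165) was lost without breaker replicate 1 and red ripe replicates 1 and 2 (adjusted p up to 0.121). The Rubisco small subunit genes RBCS-1 and RBCS-2A were at most 2.01 on all 5 arrays and were not called.

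Genes encoded in the plastid genome differed little in size. Of 42 members 5 fell and none rose (limma; 11.9% of the list), the 5 being psb genes, of photosystem II and its assembly. In 32 of 42 all red ripe arrays lay below both breaker arrays, against 18.3% of all genes with 1 symbol and 29% of those named, and the list had a median log2 fold change of -0.29 (-0.23 to -0.28 after the rescalings). psbJ had 8.80, 8.54 and 8.96 at red ripe, against 9.71 and 9.96 at breaker (-1.07, adjusted p = 0.0063), and psbN had 10.38, 10.33 and 10.43 at red ripe, against 11.14 and 11.17 at breaker (-0.78, adjusted p = 0.00718). The other 3 probe sets of psbN did not pass. psbL fell by 0.98, psbF by 0.74 and psbM by 0.65. None of the 5 calls was kept without breaker replicate 2 (adjusted p of 0.0912 to 0.218), and 1 was left without breaker replicate 1.

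The list of flavonoid, cuticle and surface lipid genes fell most uniformly. Of 10 members 8 fell and none rose (limma), and the median log2 fold change was -2.66. In 9 of 10 all red ripe arrays lay below both breaker arrays, against 18.3% of all genes with 1 symbol and 29% of those named. Besides ltpg1 the fallen genes included those of chalcone synthase, the enzyme that builds the naringenin chalcone pigment of the tomato peel. CHS1 had 2.24, 1.88 and 1.72 at red ripe, against 5.71 and 6.29 at breaker (-4.05, standard error 0.31, adjusted p = 0.000167). CHS2 had 5.80, 5.57 and 5.43 at red ripe, against 8.06 and 7.99 at breaker (-2.42, adjusted p = 4.04e-05). F3H, a flavanone hydroxylase further down the route, had 5.13, 4.72 and 4.85 at red ripe, against 8.66 and 8.64 at breaker (-3.75, standard error 0.20, adjusted p = 2.72e-05). The enzymes were joined by MYB12, the regulator of this route, with 2.06, 1.51 and 2.30 at red ripe, against 5 and 4.7 at breaker (-2.89, adjusted p = 0.000206). The courses differed, since CHS2 was at 8.02 and 7.88 at turning and pink and CHS1 at 2.37 and 4.08.

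Surface lipid genes followed. LE16, a second lipid transfer protein, had 4.57, 4.20 and 3.62 at red ripe, against 8.15 and 6.99 at breaker (-3.44, adjusted p = 0.000967), and CD2, a homeodomain regulator of the cuticle, had 4.25, 4.06 and 3.96 at red ripe, against 5.64 and 5.62 at breaker (-1.54, adjusted p = 0.000323). hqt, which makes chlorogenic acid, fell by 0.84, lost without breaker replicates 1 and 2 and red ripe replicates 1 and 2 (adjusted p up to 0.177). TSW12 and ANT1 were not called. The 3 epidermis and cuticle markers measured, CD2, ltpg1 and CHS1, are all members of the flavonoid, cuticle and surface lipid list. Their mean signal was 2.79 to 3.28 on the red ripe arrays and 7.11 to 7.23 on the breaker arrays, and all 3 were lower at red ripe. The part of the epidermis in these falls was not tested. The 4 fruit flesh markers (2A11, PG2, Psy1 and E8-6) averaged 9.00 to 9.14 at red ripe and 8.61 to 8.83 at breaker, but they went opposite ways. The log2 fold change was 2.03 for PG2 and 0.73 for Psy1, against -0.355 for 2A11 and -0.97 for E8-6. Of these PG2 and E8-6 passed an adjusted p under 0.05. Of 4 abscission zone markers Cel1 was above 3 on these arrays (5.94, 5.15 and 5.82 at red ripe, against 6.99 and 5.16 at breaker), while TAPG2, TAPG4 and cel5 were at most 2.02.

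**Figure D4:**
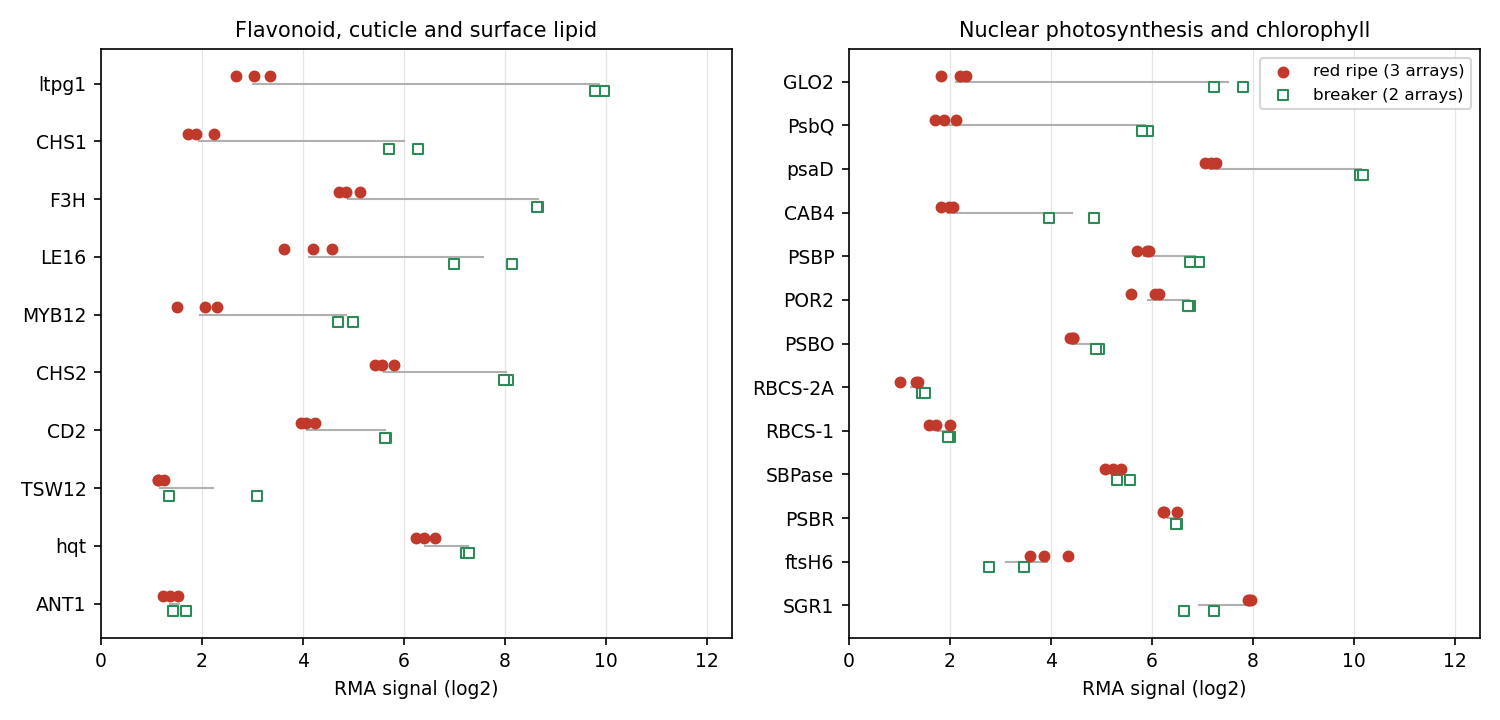
Log2 RMA signal of the 10 flavonoid, cuticle and surface lipid genes and the 13 nuclear photosynthesis and chlorophyll genes, 1 row per gene, ordered by fold change; filled circles are the 3 red ripe arrays, open squares the 2 breaker arrays, and grey lines join the stage means. In the first panel ltpg1, CHS1 and F3H show the widest gaps, and in the second SGR1 and ftsH6 alone lie higher at red ripe.

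In metabolism of sugars, starch and malate 3 of 35 genes rose and 3 fell. bmy3, a beta-amylase, had 10.05, 10.06 and 9.85 at red ripe, against 9.02 and 9.00 at breaker (0.98, adjusted p = 0.00322). mdh, a malate dehydrogenase, had 5.50, 4.86 and 5.33 at red ripe, against 7.35 and 7.15 at breaker (-2.02, standard error 0.20, adjusted p = 0.000754). The hexokinase HXK4 fell by 1.69 (adjusted p = 0.00234) and the sucrose transporter SUT4 by 1.16 (adjusted p = 0.00253), and these 4 calls were kept without each array in turn. The wall invertase Wiv-1 rose by 1.52 (adjusted p of 0.0734 and 0.126 without breaker replicate 1 or 2), and AGP-S2, of ADP-glucose pyrophosphorylase, by 0.62, lost without any single breaker or red ripe array (adjusted p up to 0.32). The fruit invertase gene lin5 had 5.76, 5.12 and 5.33 at red ripe, against 4.87 and 5.90 at breaker, so that the stages overlapped (log2 fold change 0.02, adjusted p = 1.0, with a direction that turned under both quantile and loess scaling).

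Of 15 flavour genes 2 rose and 1 fell. LOX1.1, a lipoxygenase of fruit, had 5.71, 5.33 and 5.74 at red ripe, against 8.68 and 9.09 at breaker (-3.29, standard error 0.18, adjusted p = 2.72e-05), while its means at turning and pink (9.29 and 8.98) were at the breaker level. loxC, the lipoxygenase that feeds the volatiles of crushed fruit, had 8.31, 8.16 and 8.45 at red ripe, against 8.63 and 8.65 at breaker (adjusted p = 0.38). The rises of loxD (1.63) and of AADC1A (2.12), a decarboxylase on the way to phenylethanol, were both lost without breaker replicate 2 (adjusted p = 0.269 and 0.259) and red ripe replicates 1 and 2, that of loxD also without red ripe replicate 3 and that of AADC1A without breaker replicate 1 and either pink array. AADC1A had 4.01, 4.14 and 2.46 at red ripe, against 1.49 and 1.34 at breaker.

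Among 22 genes of amino acids and polyamines 2 rose and 2 fell. hdc, a histidine decarboxylase like LOC101248320, had 7.29, 7.33 and 7.68 at red ripe, against 5.10 and 5.63 at breaker (2.07, adjusted p = 0.00261), with means of 2.85 and 2.81 at turning and pink. GABA-TP2, a transaminase that breaks down gamma-aminobutyrate (GABA), had 1.51, 1.43 and 1.41 at red ripe, against 3.33 and 3.06 at breaker (-1.75, adjusted p = 0.000874, at best a lower bound). GABA-TP1 fell by 0.72 and the arginine decarboxylase gene adc1 rose by 2.05. The call of GABA-TP1 was lost without any single breaker or red ripe array (adjusted p up to 0.332), and that of adc1 without breaker replicate 2, red ripe replicates 1 and 2 or either pink array (adjusted p up to 0.206). Of 9 glycoalkaloid and sterol genes lTTS1 fell by 1.54 (adjusted p = 0.00194) and CAS1, the cycloartenol synthase of sterol formation, by 1.01, lost without breaker replicate 2 or any red ripe array (adjusted p up to 0.2).

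In the hormone lists apart from ethylene the share of members past the test was 27.3% for jasmonate and 20% for abscisic acid. It was 13.3% for gibberellin, 11.1% for auxin and 5.26% for cytokinin and brassinosteroid, against 18.7% of named genes. Of 11 jasmonate genes 3 fell and none rose (limma). opr3, an oxophytodienoate reductase, had 4.17, 3.80 and 3.68 at red ripe, against 5.95 and 6.27 at breaker (-2.23, standard error 0.18, adjusted p = 0.000231), and the allene oxide cyclase gene aoc had 2.86, 2.83 and 2.45 at red ripe, against 4.36 and 4.92 at breaker (-1.93, adjusted p = 0.00105). OPR1 fell by 0.94, lost without any single breaker or red ripe array (adjusted p up to 0.151). Of 27 auxin genes ARF1, listed as an auxin response factor, had 4.03, 3.67 and 3.39 at red ripe, against 6.47 and 6.39 at breaker (-2.73, adjusted p = 0.000189). ARF13 fell by 0.99 (adjusted p up to 0.118 without breaker replicate 2 or red ripe replicate 2) and IAA3 rose by 1.48 (adjusted p up to 0.144 without breaker replicates 1 and 2 or red ripe replicates 2 and 3).

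Of 15 gibberellin genes the receptor gene GID1 rose by 1.02 and 20ox-3, of gibberellin synthesis, by 1.03, with adjusted p = 0.0503 and 0.0641 without breaker replicate 1. CYP85A1, an oxidase of brassinosteroid synthesis, had 7.59, 8.09 and 8.32 at red ripe, against 6.15 and 5.54 at breaker (2.15, adjusted p = 0.00375; 0.0503 without breaker replicate 2) and was the member called among 19 of cytokinin and brassinosteroid. Of 10 abscisic acid genes FLACCA, whose product activates the last enzyme of abscisic acid formation, rose by 1.00 and the phosphatase gene PP2C-1 fell by 0.64. FLACCA was lost without breaker replicates 1 and 2 and red ripe replicates 1 and 2 (adjusted p up to 0.207), and PP2C-1 without any single breaker or red ripe array (adjusted p up to 0.297).

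Of 14 calcium signalling genes 3 rose and none fell (limma), with a median of 0.54, or 0.33 and 0.28 after quantile and cyclic loess normalization. CIPK11, a kinase driven by calcineurin B-like calcium sensors, had 6.06, 6.50 and 5.72 at red ripe, against 3.35 and 2.86 at breaker (2.99, standard error 0.24, adjusted p = 0.000214), and was at 2.65 and 2.56 at turning and pink. CIPK6 and N6 rose by 1.58 (adjusted p = 0.0482) and 1.14 (adjusted p = 0.0311). Neither passed in limma after quantile normalization (adjusted p = 0.466 and 0.335) or cyclic loess normalization (adjusted p = 0.165 and 0.213). Neither call was kept without any single breaker or red ripe array, nor that of CIPK6 without either pink array.

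Redox and ascorbate genes passed the test often, yet none of their 7 calls was kept without each array in turn. Of 20 members 3 rose and 4 fell. The glutathione peroxidase gene GPXle-1 had 8, 8.19 and 8.49 at red ripe, against 7.02 and 6.68 at breaker (1.38, adjusted p = 0.00414; 0.0605 without breaker replicate 2), and the catalase gene cat1 had 8.76, 8.28 and 8.77 at red ripe, against 9.84 and 9.95 at breaker (-1.29, adjusted p = 0.00366; 0.0537 without breaker replicate 2). The glutaredoxin gene GRX1 rose by 0.86 and GSH1, of glutathione synthesis, by 0.73. APX1, DHAR1 and GMP, which use, recycle and help to make ascorbate, fell by 1.31, 0.99 and 1.07. Without breaker replicate 2 the list held 1 rise and 0 falls.

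Of 21 defence genes the chitinase CHI9 had 3.79, 3.41 and 3.75 at red ripe, against 1.78 and 1.9 at breaker (1.81, adjusted p = 0.000393). The chitinase CHI3 rose by 1.69 (adjusted p up to 0.12 without breaker replicate 1 or red ripe replicates 1 and 2), the protease P69B by 1.1 (adjusted p = 0.0615 without breaker replicate 2), and lap2, an aminopeptidase, fell by 1.5 (adjusted p up to 0.223 without breaker replicates 1 and 2 or red ripe replicates 1 and 2). Among 14 heat shock genes vis1, a small heat shock protein, had 8.51, 8.50 and 8.71 at red ripe, against 7.05 and 6.94 at breaker (1.58, adjusted p = 0.000357), below its means of 9.45 at turning and 9.96 at pink. HSP21, the plastid small heat shock protein, showed the same order of stages, with 7.30, 7.39 and 7.16 at red ripe, against 6.34 and 6.42 at breaker (adjusted p = 0.00827; 0.0912 and 0.0756 without breaker replicate 1 or 2) and means of 9.12 and 10.1 at turning and pink. Hsp90-1 fell by 0.55, lost without any single breaker or red ripe array (adjusted p up to 0.303). Of 25 membrane transport genes the sodium antiporters sos1 and nhx4 fell by 1.21 and 0.78, and of 20 genes of cell division CDKC, a cyclin-dependent kinase, rose by 0.69. All 3 were lost without breaker replicates 1 and 2 (adjusted p of 0.067 to 0.352) and further arrays.

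The intermediate stages placed these end points in the course of ripening. Among the 771 genes called higher, the red ripe mean was the highest of the 4 stage means in 727 (94.3%), and the means moved one way through the stages in 63. Among the 626 called lower, red ripe was the lowest of the 4 in 292 (46.6%), and the means moved one way in 120. Over all 21326 genes with 1 symbol red ripe was the highest of the 4 in 37.2% and the lowest in 21.1%. The shares among the called genes depend on the choice of the genes, which already fixed the order of red ripe and breaker. PG2 belonged to the steady risers, with means of 10.3 at turning and 10.8 at pink, as did Cel2 with 8.46 and 10.2. ca3, tXET-B2 and CIPK11 were no higher than 2.65 at both middle stages and stood out at red ripe. CYP85A1 and 20ox-3 dipped to 1.76 and 3.36 at turning, and the fallen genes GP1, Cel8 and ACS1A were close to or below their red ripe level from turning on. The turning and pink arrays carried less weight in the fit that allows for array quality (0.397 and 0.573, against 0.904 to 2.11 at red ripe and 2.21 at breaker), and their values are given as levels. Their signal range was also narrower at the upper end. The level that 1 in 10 probe sets exceeded was 4.17 and 4.51 at turning and 4.40 and 4.55 at pink, below that of all breaker and red ripe arrays. The turning arrays correlated at r = 0.939 and the pink arrays at r = 0.957. The part of this range in the dips at the middle stages was not tested.

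**Figure D5:**
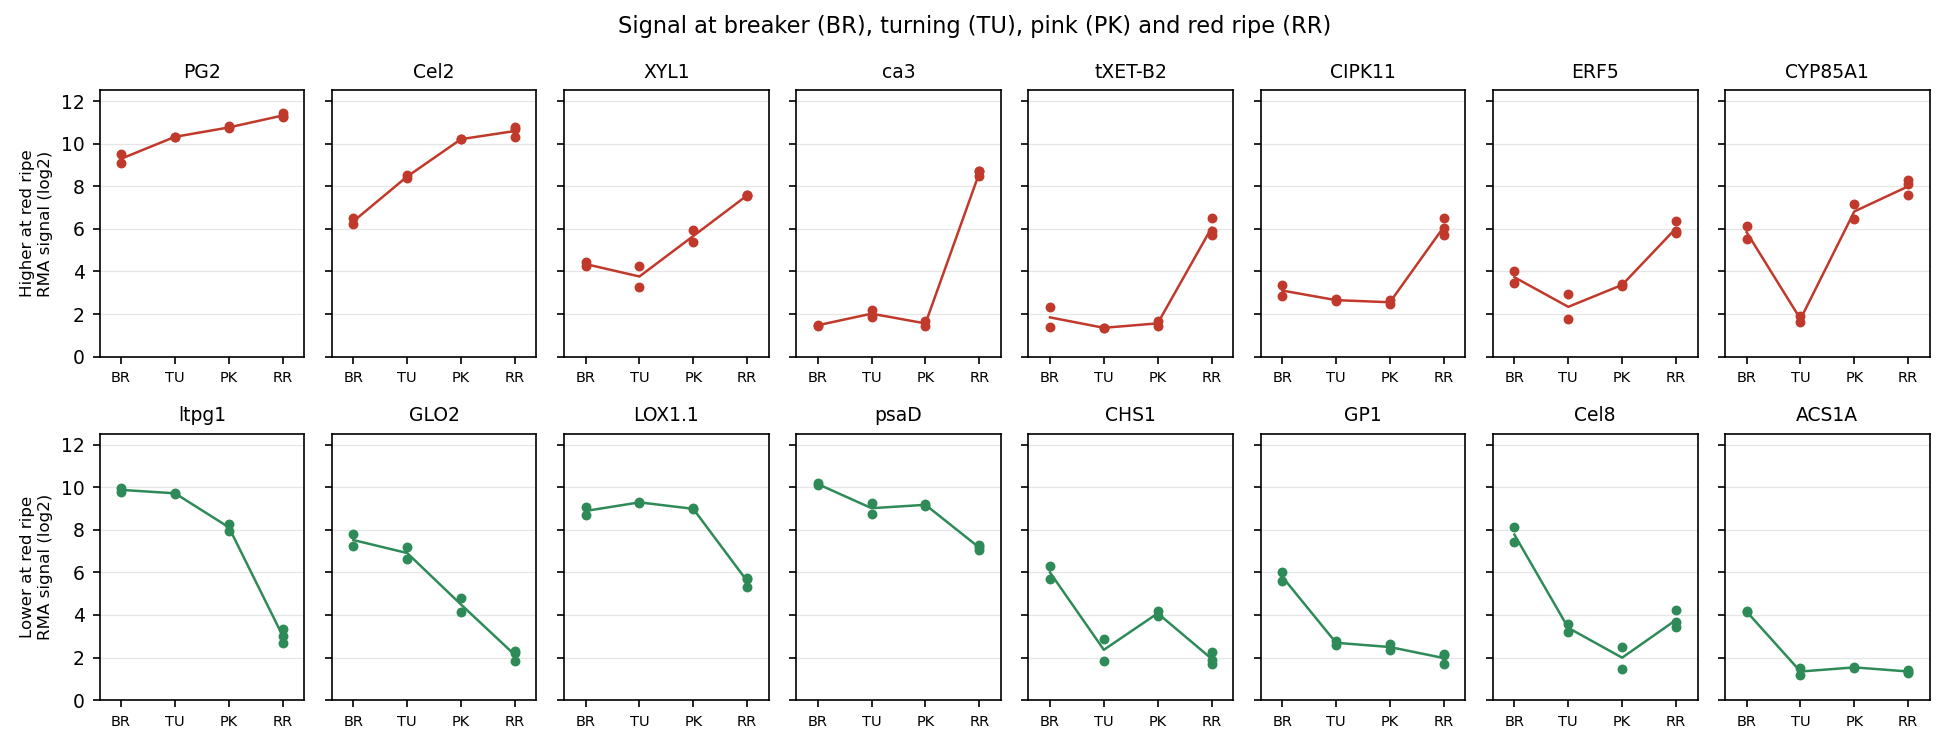
Log2 RMA signal of 8 genes higher and 8 genes lower at red ripe, with the 4 stages in order of ripening from breaker (BR) to red ripe (RR); points are arrays and lines join stage means. PG2 and Cel2 climb from stage to stage, ca3 and tXET-B2 stand out at red ripe, ltpg1 and LOX1.1 stay high until pink, and GP1 and ACS1A are low from turning on.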

How the data were processed

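Total RNA of 9 samples was hybridised to Affymetrix TomGene ST 1.1 strips. The deposited values are log2 signals per transcript cluster that the authors obtained with RMA in Affymetrix Expression Console, and the processing notes also name Transcriptome Analysis Console 2.0. RMA puts arrays on a common scale, so a change shared by most genes is removed, and low signals are compressed. The table was used as deposited. In R 4.3.3 with limma 3.58.1, lmFit and eBayes without trend fitted 1 mean per stage (5 residual and 3.65 prior degrees of freedom), and p-values were adjusted over 67795 probe sets. Gene symbols are those of the platform table. The members and lists were chosen with earlier results of these data known, and the 24 lists were sorted by array symbols after 225 of 620 symbols first written had matched. Named were the 15 largest rises and falls with non-overlapping arrays, up to 4 rises and 4 falls per list by adjusted p, and fixed ripening genes; other members were added to complete counts after their values were seen. RIN, ACS4 and E4 were not matched. On simulated data with 200 changed probe sets, a log2 change of 1.5 was called in 69% and a log2 change of 3 in 95%. The number of arrays limits precision. Alternatives were 3 rescalings, a filter on low signals, robust moderation with a trend (statmod 1.5.0), a fit with array weights, a fit of the 2 stages, a replicate block, leaving out each array, other thresholds and the test of the methods.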

Additional observations from a re-analysis of the deposited data

How the results depend on the processing

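Of the 120 named genes 67 kept direction and side of the threshold in every alternative run for them (17 each, or 16 for ACO1 and RBCS-2A, which the filter on low signals left out). The reversed one was lin5, at -0.25 after quantile normalization, -0.20 after cyclic loess, -0.50 without breaker replicate 1 and -0.16 without red ripe replicate 1 (up to 0.53 without breaker replicate 2). Over the array, leaving out 1 array at a time gave 536 to 1164 probe sets higher and 524 to 879 lower, the lowest counts without breaker replicate 2. Without a fold threshold 1590 were higher and 1147 lower. The per-probe-set test of the methods on the 2 stages gave 1159 higher and 925 lower unadjusted, and 16 and 15 after Benjamini-Hochberg adjustment; it does not pool the spread. The replicate number as a block gave 1110 and 796. Deviations from the stage means of arrays that share a number correlated at r = -0.01 to 0.09. In a stage of 2 arrays the deviations mirror each other, so these values cannot decide whether the numbers pair the samples. Of 112 named genes past the test, 63 remained so without each of the arrays in turn, while 36 calls were lost without breaker replicate 1 and 41 without breaker replicate 2. Rescaling ended calls of named genes as well, 15 after quantile normalization and 11 after cyclic loess. Those of ERF4, pds, loxD, AGP-S2, adc1, GRX1, N6, CIPK6 and CDKC were lost under both, and that of Cry1b after quantile normalization. Signal without detection calls limits folds at the low end.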

Other observations

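Among probe sets with no gene symbol, 187 were called higher (0.421%) and 185 lower (0.416%). Probe set 20259961, described by the study's annotation as an alpha-hydroxynitrile lyase, an enzyme class that releases cyanide from plant cyanohydrins, had 10.68, 10.63 and 10.77 at red ripe, against 1.60 and 3.21 at breaker, a log2 fold change of 8.29 that exceeds that of ca3. Its mean was already 7.73 at pink. Probe set 20355477, annotated as a defensin, a small antimicrobial protein, had 2.74, 3.12 and 3.35 at red ripe, against 7.53 and 8.41 at breaker (-4.90).

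Some of the genes described above, singled out after their values were seen, are neighbours in the gene order of the RefSeq annotation (assembly SLM_r2.1). The lipid transfer protein genes LE16 and ltpg1 lie next to each other, and LOC101266080 on the far side of LE16 also fell, with 1.32, 1.48 and 1.29 at red ripe, against 4.75 and 4.40 at breaker. The histidine decarboxylase genes hdc and LOC101248320 are adjacent too, and both rose. Related neighbours may share probe sequence, which could not be examined here. Of 16047 adjacent pairs with both genes tested, both were called in 94. In 44 of these pairs both genes were higher, in 14 both were lower, and in 36 they went opposite ways. CBF1, a factor known from the cold response, had 5.05, 6.56 and 5.59 at red ripe, against 1.98 and 1.80 at breaker, and was likewise chosen after its values were seen.

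Of 56 called genes measured by several probe sets, 21 had at least 1 other probe set called the same way and 0 had one called the opposite way. In the rest no other probe set was called. Of all probe sets with 1 symbol 3.54% were called higher and 2.82% lower, so few opposite calls would be seen without agreement as well.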
